A study of Homo sapiens with 10 samples.

Results

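The comparison described here set the microRNAs (miRNAs) recovered from HepG2 cells with a probe against the p21 mRNA beside those recovered with a control probe. It comprised 4 of the 10 samples of the series, namely 1 purification with each probe, each run on 2 quantitative PCR panels that carry different assays. HepG2 is an established human line from a liver tumour. Both groups were grown and handled alike, carried no named genetic change, and differed by design in the probe. Each probe also had its own purification and its own panel runs, which cannot be told apart from the probe. The probe was transfected and left to hybridise for 24 h, and bound material was taken up on streptavidin beads and extracted with TRIzol (the procedure called miRIP in the labels). The probes' sequences were not given in the sources used here, and the recovery of p21 mRNA was not analysed here. Members were every assay whose name contains miR or let, 745 in all for 742 miRNAs, with 375 on panel 1 and 370 on panel 2. Each condition was purified 1 time, so the differences below stand without a replicate and no p-values accompany them.

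As background, p21 (gene CDKN1A) is an inhibitor of cyclin-dependent kinases and arrests the cell cycle when it accumulates. A miRNA is cut from a hairpin precursor, and 1 arm of the hairpin usually stays in the Argonaute complex while the other, the passenger or star strand, is mostly lost. The seed, a short stretch near the 5′ end, does most of the pairing with target mRNAs, so that miRNAs with the same seed form a family. Many miRNA genes lie close together and are cut from 1 long transcript, which makes a genomic cluster.

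The sequences that separate the results most sharply are those of families whose members share a seed and yet differed in recovery. All sequences are from RefSeq (GRCh38.p14), are written 5′ to 3′, and have the seed (bases 2 to 8) in capitals. Of the 233 assays detected with either probe, 201 could be matched to a mature sequence there. In the family of miR-92a, the first 2 members were the most enriched with the p21 probe among assays detected with both probes. miR-25 was near the middle of its panel, and miR-32 was detected with the control probe only.
miR-92a: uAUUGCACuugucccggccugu
miR-92b: uAUUGCACucgucccggccucc
miR-25: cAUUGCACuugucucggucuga
miR-32: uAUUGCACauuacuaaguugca
Compared position by position from the 5′ end, miR-92b differs from miR-92a at 3 of 22 bases, miR-25 at 4 and miR-32 at 11. miR-92a is encoded at chr13:91351361-91351382 (plus strand) and at a second locus, miR-92b at chr1:155195237-155195258 (plus), miR-25 at chr7:100093571-100093592 (minus) and miR-32 at chr9:109046272-109046293 (minus).

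The let-7 family is shown because members that differ by 1 base fell on different sides of the panel median.
let-7b: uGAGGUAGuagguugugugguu
let-7e: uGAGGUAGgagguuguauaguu
let-7d: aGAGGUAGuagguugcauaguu
let-7c: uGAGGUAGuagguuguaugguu
let-7a: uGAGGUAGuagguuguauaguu
let-7f: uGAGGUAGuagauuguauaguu
Against let-7a, each of let-7c, let-7e and let-7f differs at 1 of 22 positions, and let-7b at 2. One copy of let-7a lies at chr9:94175962-94175983, 1 copy of let-7f at chr9:94176353-94176374 and let-7d at chr9:94178841-94178862, all on the plus strand of 1 cluster. let-7e lies at chr19:51692793-51692814, let-7c at chr21:16539838-16539859 and let-7b at chr22:46113691-46113712, also on plus strands. How far the assays tell such close sequences apart was not given in the sources used here.

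Further pairs share a seed and are shown because their members also differed.
miR-125a-5p: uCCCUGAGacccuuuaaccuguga
miR-125b: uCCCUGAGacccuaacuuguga
miR-23a: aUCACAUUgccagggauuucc
miR-23b: aUCACAUUgccagggauuaccac
miR-18a: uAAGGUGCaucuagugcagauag
miR-18b: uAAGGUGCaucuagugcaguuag
miR-18a and miR-18b differ at 1 of 23 positions and miR-23a and miR-23b at 1 of the 21 compared. miR-125a-5p lies at chr19:51693268-51693291 (plus) and 1 copy of miR-125b at chr11:122099809-122099830 (minus). miR-23a lies at chr19:13836595-13836615 (minus) and miR-23b at chr9:95085265-95085287 (plus). miR-18a lies at chr13:91350756-91350778 (plus) and miR-18b at chrX:134170084-134170106 (minus).

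Most assays stayed above the detection limit with either probe, and more assays passed it with the p21 probe than with the control probe, mainly on panel 2. A Cq is the PCR cycle at which the signal crosses its threshold, so a lower Cq of the same assay means more RNA, and a Cq of at most 35 was taken as detected. Of 745 assays, 103 (13.8%) were detected with both probes, 108 (14.5%) were p21-only, 22 (2.95%) control-only and 512 (68.7%) undetected. Of these last, 282 gave no Cq at all and the others a Cq above 35 with at least 1 probe. On panel 1, which carries mostly long-known miRNAs, the control probe gave 108 of 375 assays (28.8%) and the p21 probe 128 (34.1%). On panel 2 it gave 17 of 370 (4.59%) and the p21 probe 83 (22.4%). Over both panels the shares were 16.8% (125) and 28.3% (211). Panel 1 held 87 assays detected with both probes (23.2%), 41 p21-only (10.9%), 21 control-only (5.6%) and 226 undetected assays (60.3%). Panel 2 held 16 (4.32%), 67 (18.1%), 1 (0.27%) and 286 (77.3%), so most p21-only assays came from panel 2 and nearly all control-only assays from panel 1.

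**Figure D1:**
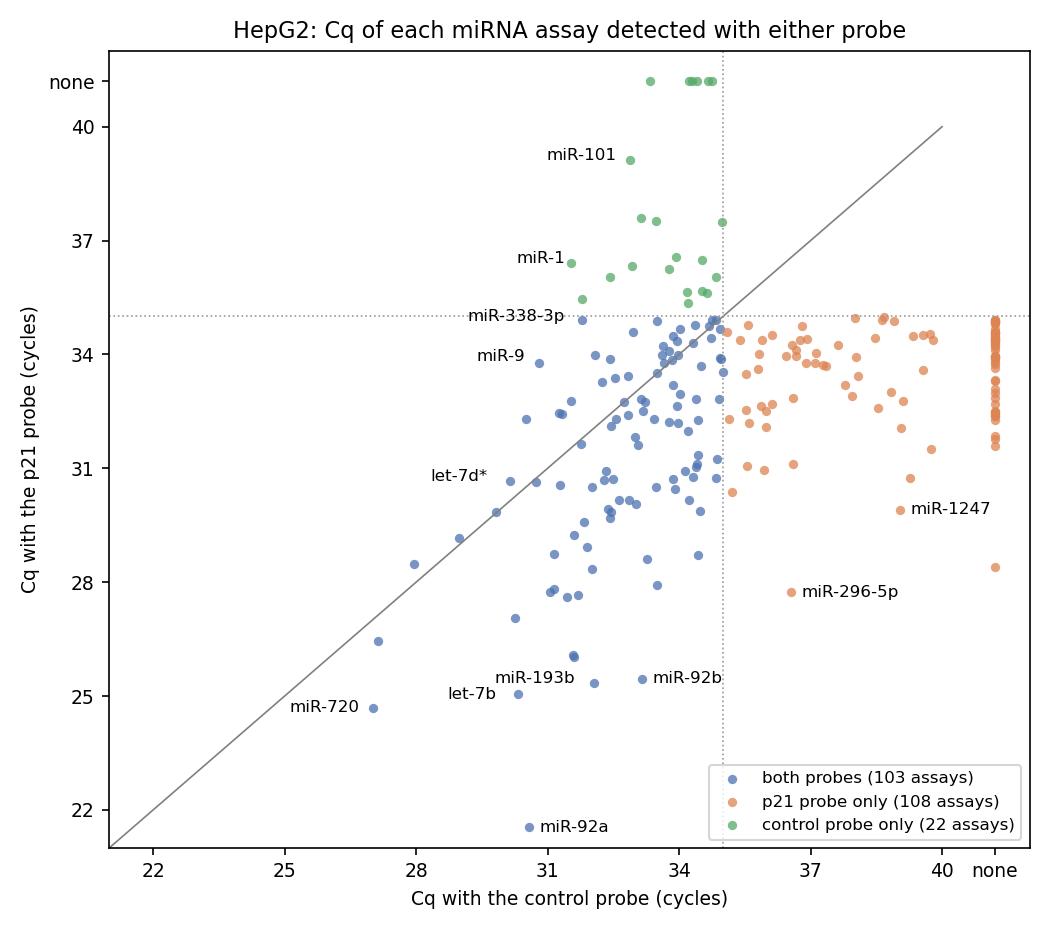
Each point is 1 miRNA assay in HepG2, with its Cq in cycles with the control probe on the x axis and with the p21 probe on the y axis; the solid line marks equal Cq, the dotted lines the limit of 35, and "none" an undetermined well. The p21-only assays fill the strip right of the limit, where 53 of 108 lack a control Cq, and miR-92a stands alone at a Cq of 21.54.

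The class of an assay was often decided by a small step across the limit. Of the 108 p21-only assays, 49 had a Cq between 34 and 35 with the p21 probe, and 55 gave a late Cq above 35 with the control probe, 16 of them within 1 cycle of the limit. Among the 22 control-only assays, 12 lay between 34 and 35 with the control probe, and 16 gave a late Cq with the p21 probe. miR-17 (34.996 with the control probe) and miR-193a-5p (34.97 with the p21 probe) were just inside, and miR-330-3p (35.01 with the p21 probe) was just outside. All 18 water wells stayed without a Cq.

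Values for assays detected with both probes are the Cq with the control probe minus that with the p21 probe, centred on the median of such assays of the same panel (1.30 cycles on panel 1, 1.06 on panel 2), with 1 cycle taken as 1 log2 unit. They are differences, not levels, and all those below are on that scale unless a Cq is named. Of 103 such assays 39 (37.9%) were at least 2-fold higher with the p21 probe, 38 (36.9%) at least 2-fold lower and 26 (25.2%) between. On panel 1 there were 33 higher (37.9%), 34 lower (39.1%) and 20 between (23%), and on panel 2 there were 6 (37.5%), 4 (25%) and 6. The values ran from -4.42 to 7.74, with quartiles of -1.36 and 1.73. Cq values with the 2 probes had a Pearson r of 0.58 and a Spearman rho of 0.54 across these 103 assays, which share both purifications. Before centring, 72 of the 103 were above 0. The 6 wells present on both panels and read with both probes gave an SD of 0.68 cycles for a difference between the purifications. Without miR-103, which differed most between the panels, it was 0.20. The 3 wells of the UniSp3 calibrator had an SD of 1.72 cycles with the p21 probe on panel 1, and from 0.31 to 0.64 in the other panel and probe combinations. The error of the purifications themselves could not be measured.

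The control wells themselves shifted between the purifications, and the centre therefore matters. U6 was 1.86 cycles lower in Cq with the p21 probe on panel 1 and 1.82 on panel 2. SNORD38B was 2.82 and 3.18 cycles lower, and SNORD49A 2.63 and 2.53. The synthetic spike UniSp6 was 0.24 and 0.36 cycles lower, while the mean of the 3 UniSp3 calibrator wells on panel 1 was 2.28 cycles later with the p21 probe, with wells from 21.60 to 24.91. On panel 2 UniSp3 was 0.16 cycles earlier. With the 3 small RNAs as the centre the split became 18 higher and 54 lower, and on UniSp3 88 and 1. The part of these wells in the results was not tested.

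Beyond the most enriched miRNAs with the p21 probe, the next 15 places were ranked among assays detected with both probes. They were held by let-7, miR-15, miR-17 and miR-23/24 family members and by several miRNAs with few relatives. Below, paired Cq values give the control probe first. miR-296-3p was highest of these, at Cq 34.84 and 30.75, a difference of 3.02 (8.14-fold). let-7c followed at 34.24 and 30.16 (2.77), and miR-125a-5p, a relative of the developmental miRNA lin-4, at 31.69 and 27.66 (2.73). miR-1913, a late-named miRNA on panel 2, gave 34.86 and 31.24 (2.56). In each of these 4 the p21 well came more than 3 cycles before the control well.

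miR-23a (2.53) and miR-24 (1.89), which are encoded together, were both in this range. miR-23a gave Cq 31.45 and 27.62, and miR-24 gave 30.25 and 27.06. miR-106a (2.36), a member of the miR-17 family reported to repress p21, gave 32.01 and 28.35. The panel 2 well of miR-103, a miRNA often used as a reference, gave 31.06 and 27.74 (2.26), under its panel 1 value of 4.29. Its p21 wells were close (27.91 and 27.74) and its control wells further apart (33.50 and 31.06).

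miR-196b, encoded among the HOXA genes, gave 34.32 and 30.78 (2.24), and miR-484 gave 33.91 and 30.44 (2.16). miR-15b (2.05) and miR-15a (1.84), which restrain cell-cycle genes, gave 31.03 and 30.71 with the p21 probe. let-7g gave 31.15 and 27.83 (2.01). miR-210, the best known miRNA of low oxygen, gave 34.40 and 31.12 (1.98), and miR-199a-5p, known from stromal cells, 34.13 and 30.92 (1.90). With a centre that adds to the 3 small RNAs the reference miRNAs detected with both probes (miR-423-5p and miR-103 on panel 1, miR-103 on panel 2), the values from miR-106a on panel 1 down to miR-15a turned slightly negative, between -0.07 and -0.58, apart from the panel 2 well of miR-103.

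At the other end, the 6th to 15th lowest values belonged to miRNAs known from blood, vessels and brain beside a few of the 14q32 and X-linked clusters. miR-412 gave 32.95 and 34.60 (-2.71), and miR-18b gave 33.50 and 34.87 (-2.68). The myeloid miR-223 gave 31.53 and 32.77 (-2.55), and the endothelial miR-126 gave 31.26 and 32.46 (-2.50). miR-136 gave 31.32 and 32.44 (-2.42), and miR-26a gave 32.23 and 33.28 (-2.35). In each of these 6 the p21 well came more than 1 cycle after the control well, so they were lower before centring as well.

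The other 4 had smaller shifts. miR-219-5p, a miRNA of myelinating cells, gave 32.55 and 33.37 (-2.12), and the lymphocyte miR-150 gave 34.02 and 34.68 (-1.96). miR-424, of the miR-15 family, gave 33.85 and 34.49 (-1.94), and the erythroid miR-451 gave 32.84 and 33.44 (-1.91). With UniSp3 as the centre those of these miRNAs on panel 1 turned positive, from 0.90 (miR-18b) to 1.67 (miR-451), while miR-412 on panel 2 did not.

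Below the 5 of lowest Cq, the p21-only assays led with miR-191, miR-886-3p and miR-612. miR-191, a widely expressed reference miRNA, is on both panels and gave 31.06 and 30.96 with the p21 probe against 35.55 and 35.93 with the control probe. With the control set at Cq 35, its wells were at least 6.21-fold and 7.91-fold higher after centring on the panel median. miR-886-3p, a name since withdrawn as a piece of a vault-like RNA, gave 31.12 against 36.59. miR-612 gave 31.50 against 39.74, and miR-26b*, the passenger of miR-26b, 31.59 with no Cq in the control well. miR-1538 (31.77) and miR-877 (31.84), a miRNA cut from a short intron, also gave none.

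miR-365, the cluster neighbour of miR-193b, gave 32.06 against 39.06, and miR-100, of the miR-99 family, 32.08 against 35.97. miR-93*, miR-378* and miR-485-3p lay at 32.20, 32.26 and 32.30. For miR-485-3p the control well came at 35.13, just past the limit. miR-483-3p, from an intron of the growth factor gene IGF2, gave 32.37 and no control Cq, and miR-636 (32.38) and miR-532-3p (32.43) gave none either. Bounds for the 15 assays of these places ran from 2.51-fold (miR-483-3p) to 7.91-fold.

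For most other p21-only assays detection says little about size. Of the 108, only 30 had a bound of at least 2-fold, and for 56 the bound did not pass 1-fold after centring, since the panel as a whole was shifted towards the p21 probe. The median Cq of the class was 33.94 with the p21 probe.

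The 22 control-only assays included miRNAs of muscle, nerve and blood and a few of the p53 pathway. miR-1, of heart and skeletal muscle, gave 31.52 and 36.41, at least 27.4-fold lower with p21 after centring. miR-934 gave 31.78 and 35.47 (at least 22.9-fold), and the brain miR-138 gave 32.43 and 36.05 (14.6-fold). These bounds include the median centre of the panel and were not computed with other centres. miR-101 gave 32.88 and 39.12, the widest gap between recorded Cq values in this class. miR-34a, a target of p53 as p21 is, gave 32.93 and 36.34, and its relative miR-34c-5p gave 33.33 and no Cq.

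Of the others, the blood miRNA miR-142-3p gave 33.13 and 37.60, miR-135a 33.46 and 37.51, let-7f 33.77 and 36.25, and miR-708 33.92 and 36.57. The neural miR-137 (34.18) and miR-186 (34.20) had p21 wells within 1 cycle of the limit, at 35.64 and 35.37. miR-32 (34.22), miR-532-5p (34.30), miR-551b (34.41), miR-95 (34.66) and miR-129-5p (34.75) had no p21 Cq. miR-595 (34.52), miR-495 (34.53), miR-324-5p (34.64), miR-558 (34.85, the 1 assay of panel 2) and miR-628-3p (34.97) had late p21 wells between 35.61 and 37.48. A bound past 2-fold after centring is fixed for this class by the limit and the centre. Of the 22, 12 were within 1 cycle of the limit with the control probe.

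Members of some genomic clusters fell in different detection classes or differed in value. The median difference of pairs within a cluster (1.57 log2 units) was nevertheless smaller than that of all pairs (2.10). Hairpin genes within 10 kb of each other on 1 strand were called a cluster, and 72 such clusters had assays on the panels, 51 with a detected assay and 14 with at least 3. In 14 clusters some members were detected with both probes and others with the p21 probe only, and in 5 a control-only member stood beside others. Assays in a cluster were detected with both probes in 52 of 340 cases (15.3%) and with the p21 probe only in 40 (11.8%). For lone genes the counts were 42 of 331 (12.7%) and 56 (16.9%). Over all assays the shares were 13.8% and 14.5%, and how many mixed clusters follow from these shares was not tested. A miRNA with copies in more than 1 cluster, such as miR-24 or miR-92a, belongs to each of them, and its assay does not tell the copies apart.

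The miR-17 to miR-92a cluster of chromosome 13 (chr13:91350605-91351391, plus strand), an oncogenic cluster driven by MYC, ranged from 0.17 to 7.74. miR-92a, its last member, stood at 7.74, while miR-20a (1.64) and miR-19b (1.15) were higher by less and miR-17 (0.17) lay near the panel median. Their Cq with the p21 probe was 21.54 for miR-92a, 30.07 for miR-20a, 30.17 for miR-19b and 33.53 for miR-17. miR-18a was detected with the p21 probe only (32.86) and miR-19a with neither (36.30 and 35.45). miR-92a and miR-19b have further copies in the cluster of the X chromosome (chrX:134169378-134170278, minus strand), where miR-106a stood at 2.36 and miR-18b at -2.68. Within the third related cluster (chr7:100093560-100094074, minus strand), miR-93 was at 1.29 and miR-25 at 0.25, miR-106b was not detected, and the star strands of all 3 genes were p21-only.

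Several clusters that hold let-7 genes, some of them beside a miR-99 or miR-100 gene, were split in the same manner. On chromosome 19 (chr19:51692612-51693339, plus strand) let-7e was at 3.35 and miR-125a-5p at 2.73, but miR-99b, their neighbour, was at 0.15. On chromosome 21 let-7c was at 2.77 beside miR-99a at 0.94. On chromosome 11 (chr11:122146522-122152308, minus strand) let-7a was at -0.63, and miR-100 and let-7a-2* were p21-only. The chromosome 9 cluster (chr9:94175957-94178920, plus strand) held let-7d at 3.31, let-7a at -0.63, let-7d* at -1.83 and let-7f among the control-only assays.

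In other clusters the members lay closer. miR-23a, miR-24 and miR-27a (chr19:13836287-13836659, minus strand) were at 2.53, 1.89 and 1.06, and the paralogous miR-23b and miR-27b (chr9:95085208-95086088, plus strand) at 0.31 and 0.20, beside miR-24, which has a copy there too. The miR-29 genes, which target collagens, lay together at -0.97 (miR-29a), -1.42 (miR-29b) and -1.30 (miR-29c), though their median was 2.28 on UniSp3 and 0.004 without centring. miR-143 (-2.76) and miR-145 (-1.20), known from smooth muscle, were both lower, and miR-221 (1.42) and miR-222 (0.47), which target the related inhibitor p27, both above the median. By contrast, in the large imprinted cluster at 14q32 (chr14:101022066-101066801, plus strand) 7 of 44 assays (15.9%) were detected with either probe, against 31.3% of all assays: miR-134 (-1.32) and miR-412 (-2.71) with both probes, miR-300, miR-485-3p, miR-654-3p and miR-758 with the p21 probe only, and miR-495 with the control probe only.

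**Figure D2:**
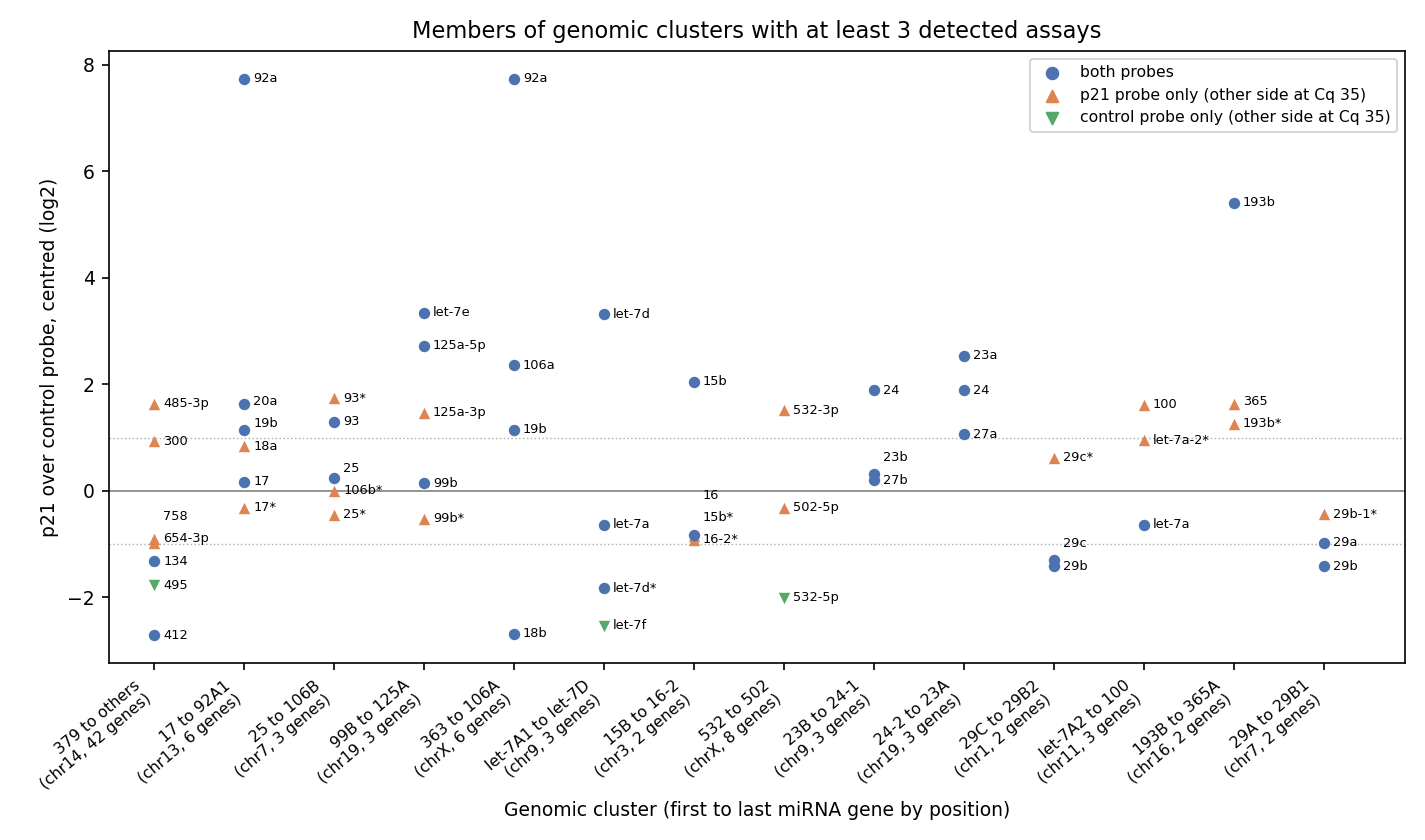
Members of the 14 genomic clusters with at least 3 detected assays, with the centred p21 over control difference (log2) on the y axis and clusters along the x axis by chromosome and number of genes. Circles are assays detected with both probes; triangles are one-sided assays with the other side set at Cq 35; dotted lines mark 2-fold. miR-92a stands far above its neighbours in both of its clusters, while the miR-29 genes lie close together.

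Across all pairs of assays detected with both probes, values differed by a median of 2.10 log2 units (5252 pairs). Pairs from 1 cluster but different hairpins differed by a median of 1.57 (34 pairs, quartiles 0.96 and 3.67), and pairs with the same seed by 1.33 (50 pairs, quartiles 0.73 and 3.34). The largest gap within a cluster was 10.42, between miR-92a and miR-18b, and within a seed family 7.49, between miR-92a and miR-25. Pairs share assays and purifications, so these are descriptions only.

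Members of a seed family also differed in recovery. Of 72 families with at least 2 names on the panels, 41 had a detected assay, 7 had at least 3, and 3 held both a member at least 2-fold higher and one at least 2-fold lower. In the family of miR-92a, miR-92a (7.74) and miR-92b (6.41) stood far above miR-25 (0.25), while miR-32 gave 34.22 with the control probe and none with p21, and miR-363 and miR-367 gave none with either. The GC content of the printed sequences was 54.5% for miR-92a, 63.6% for miR-92b, 50% for miR-25 and 31.8% for miR-32.

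The let-7 family ran from let-7b (3.97), let-7e (3.35), let-7d (3.31), let-7c (2.77) and let-7g (2.01) down to let-7a (-0.63) and let-7i (-1.03), with let-7f control-only and miR-98 detected with neither. let-7a gave 33.85 and 33.18, let-7c 34.24 and 30.16, and let-7b 30.32 and 25.04, so the level with the control probe did not order them. The miR-15 family split into miR-15b (2.05) and miR-15a (1.84) against miR-16 (-0.84) and miR-424 (-1.94). miR-125a-5p (2.73) stood against miR-125b (-1.30), whose Cq was 29.83 with either probe.

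The miR-17 family, miR-99, miR-103 and miR-29 families were narrower. miR-106a (2.36), miR-20a (1.64), miR-93 (1.29) and miR-17 (0.17) were above 0, with miR-20b and miR-106b not detected, although the median of the 4 was -0.95 with the reference assays as the centre. miR-103 was at 4.29 and 2.26 on the panels and miR-107 at 1.15. miR-99a was at 0.94, miR-99b at 0.15 and miR-100 p21-only. miR-26a (-2.35) and miR-26b (-1.63) were both lower, as were the muscle miRNAs miR-133b (-3.11) and miR-133a (-1.17), and miR-196b (2.24) lay above miR-196a (0.80). Of the 18 family, miR-18b was at -2.68 while miR-18a was p21-only.

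**Figure D3:**
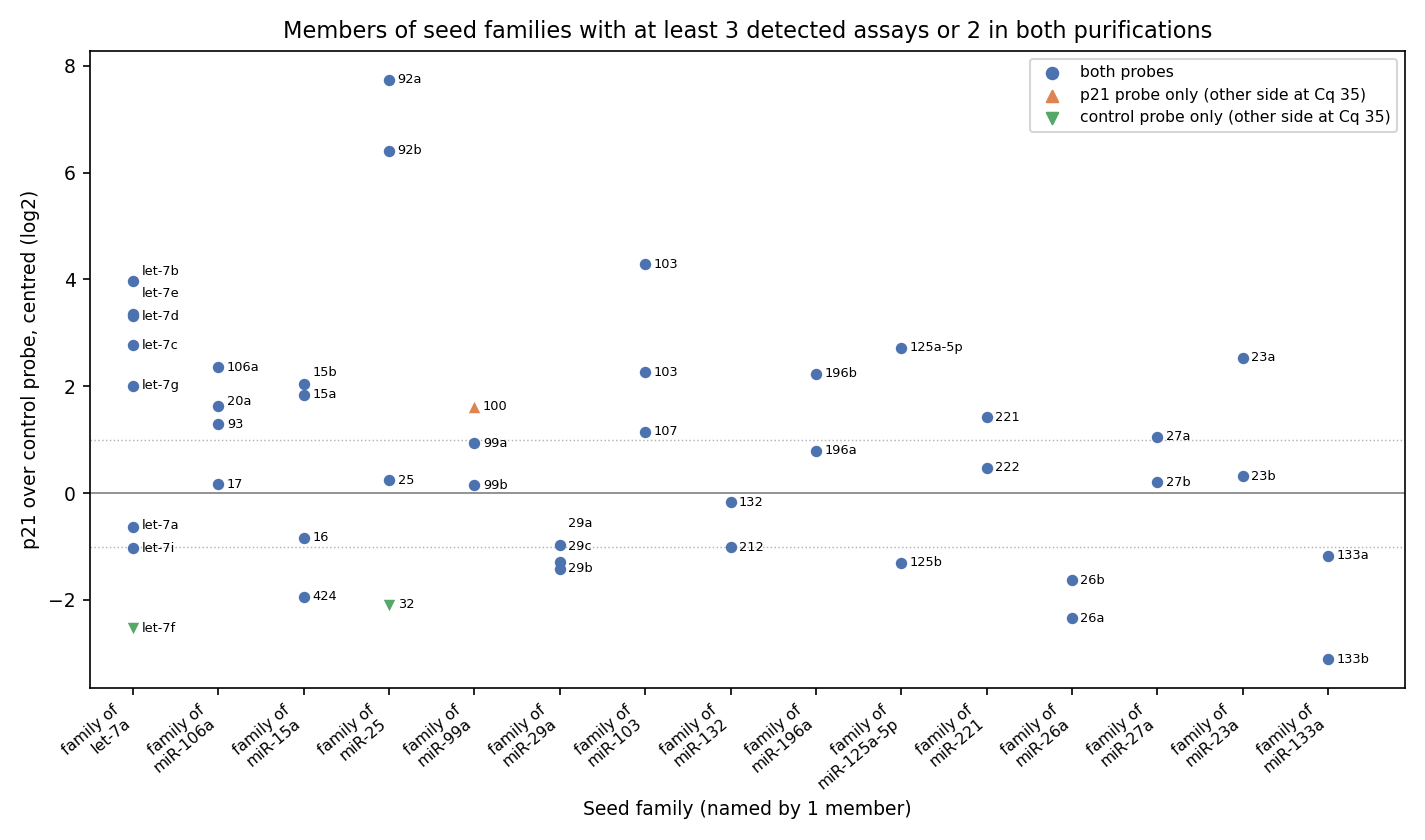
Members of the seed families with at least 3 detected assays or at least 2 detected with both probes; the y axis is the centred p21 over control difference (log2), the x axis the family, named by 1 member. Circles are assays detected with both probes, triangles one-sided assays with the other side at Cq 35, dotted lines 2-fold. The families of miR-25 and let-7 spread from control-only members to the highest values, and the miR-29 family is the narrowest of those with 3 members.

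Passenger strands were p21-only about as often as all assays (14.5%). Of 155 assays whose name carries a star, 7 (4.52%) were detected with both probes, 24 (15.5%) were p21-only and 0 control-only. For the 590 names without a star the counts were 96 (16.3%), 84 (14.2%) and 22 (3.73%). Of the star assays 126 are on panel 2. There 22 of 126 star assays (17.5%) and 45 of 244 others (18.4%) were p21-only, and 4 (3.17%) and 12 (4.92%) were detected with both probes. On panel 1, 3 of 29 star assays (10.3%) and 84 of 346 others (24.3%) were detected with both. By arm, 46 of 241 5p assays (19.1%) and 32 of 272 3p assays (11.8%) were p21-only, and 41 (17%) and 39 (14.3%) were detected with both.

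Both arms of a hairpin were seen more often with the p21 probe, as were single assays. Of all assays, 28.3% were detected with the p21 probe and 16.8% with the control probe. On panel 2, which holds 126 of the 155 star assays, the shares were 22.4% and 4.59%. How far the counts of pairs follow from these shares was not tested. Of 201 pairs of assay names matched to a shared hairpin, 28 gave both arms with the p21 probe and 5 with the control probe. In 31 pairs both arms were detected with at least 1 probe. A pair of names was counted 1 time, and a hairpin could hold more than 1 pair. In 18 of these 31 one arm was detected with both probes and the other with the p21 probe only, and in 6 both arms were p21-only. Among 22 hairpins with a star name and both arms present with the p21 probe, the star had the higher Cq in 17. miR-193b and its star stood at 25.35 and 32.68, and miR-92b and its star at 25.45 and 33.93.

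In some hairpins the arms differed in recovery. let-7d and let-7d* gave 34.48 and 30.14 with the control probe, and 29.86 and 30.67 with the p21 probe. The order of Cq was turned, although Cq values of different assays do not give the relative amounts of the arms. Their differences were 3.31 and -1.83. miR-296-5p and miR-296-3p gave control Cq values of 36.55 and 34.84 and p21 values of 27.73 and 30.75, also a change of order of Cq. The precursors of both are printed with the mature arms in capitals, let-7d from chr9:94178834-94178920 (plus strand) and miR-296 from chr20:58817615-58817694 (minus strand).
let-7d hairpin: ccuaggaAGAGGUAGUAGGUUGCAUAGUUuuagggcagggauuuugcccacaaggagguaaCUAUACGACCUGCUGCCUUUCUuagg
miR-296 hairpin: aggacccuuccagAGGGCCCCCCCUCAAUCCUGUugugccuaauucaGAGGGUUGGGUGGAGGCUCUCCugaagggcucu
miR-26b* (31.59) came earlier than miR-26b (34.09) with the p21 probe, though miR-26b was the detected arm with the control probe (33.76). miR-31 gave 35.20 and 30.38 while its star gave 34.76 and 34.92. The arms of miR-126 were both lower, at -2.50 and -1.91, as did let-7i and its star at -1.03 and -1.13. For miR-532 the 5p arm was control-only (34.30) and the 3p arm p21-only (32.43). Arms on different panels were read on different plates.

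**Figure D4:**
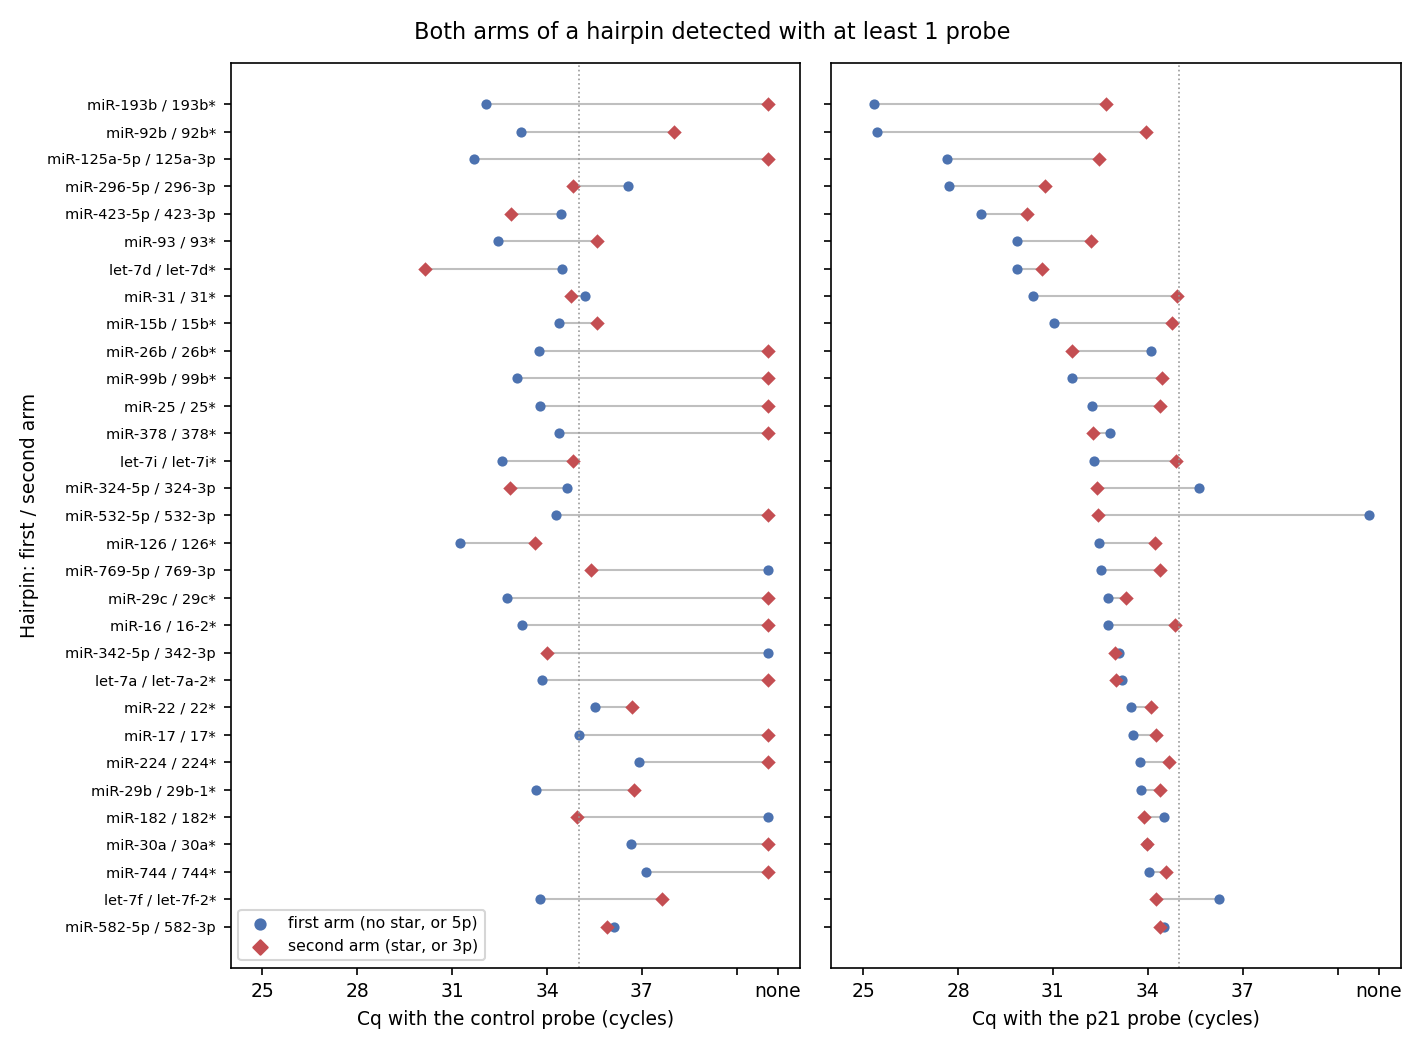
The 31 hairpins with both arms detected with at least 1 probe, 1 per row; the left panel gives the Cq (cycles) with the control probe and the right panel with the p21 probe, the dotted line the limit of 35, and "none" an undetermined well. Blue circles are the arm without a star or the 5p arm, red diamonds the star or 3p arm. With the p21 probe 28 rows have both arms left of the limit, and with the control probe 5.

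With the panels pooled, control-only miRNAs were poorer in G and C than p21-only miRNAs. Of the control-only assays 21 of 22 were on panel 1, and of the p21-only assays 67 of 108 on panel 2. In the pooled comparison class and panel therefore cannot be told apart. Panel 1 held 41 p21-only and 21 control-only assays, but GC content of the classes was not compared within a panel. Median GC content of the mature sequence was 51.1% in p21-only assays (90 with a sequence), 47.8% in those detected with both (92) and 42.1% in control-only assays (19), against 47.8% over all 636 assays with a sequence. Sequences under 40% GC made up 47.4% of the control-only class (9 of 19), 13.3% of the p21-only class (12 of 90) and 20.1% of all. Examples are miR-101, miR-32 and let-7f, all control-only. Among the 92 assays detected with both probes, GC content and the difference had a Pearson r of 0.20 and a Spearman rho of 0.24, across miRNAs that share both purifications. These are weak, and on panel 1 alone r was 0.20 (78 assays). miR-92a and let-7b, with 54.5% and 45.5% GC, were not at the extremes.

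Detection in PC-3, a prostate cancer line purified separately with its own control and p21 probes, differed between the classes of HepG2. Of the 39 assays at least 2-fold higher with the p21 probe in HepG2, 20 (51.3%) were detected in PC-3 with the p21 probe and 1 (2.56%) with the control probe, the 1 being miR-720, whose name has since been withdrawn. Over all 745 assays the shares were 7.11% and 2.15%. Of the 38 lower assays 6 (15.8%) and 5 (13.2%) were detected, of the 108 p21-only assays 12 (11.1%) and 4 (3.70%), and of the 22 control-only assays 1 (4.55%) and 0. The 19 higher assays that PC-3 gave with the p21 probe only included miR-193b (33.67), miR-125a-5p (33.82), miR-23a (34.21), miR-106a (34.33) and miR-24 (32.30). miR-1247 (34.71), miR-612 (33.71), miR-1538 (34.48) and miR-483-3p (34.88) were p21-only in both lines. miR-296-5p, at 27.73 in HepG2, gave no Cq in PC-3 with either probe. In HepG2 the median Cq with the p21 probe was 29.69 for the higher class, 33.87 for the lower class and 33.94 for the p21-only class, and the part of this level in the PC-3 shares was not tested. By panel, the p21 probe gave 38 assays (10.1%) on panel 1 and 15 (4.05%) on panel 2 in PC-3, and the control probe 8 (2.13%) and 8 (2.16%).

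**Figure D5:**
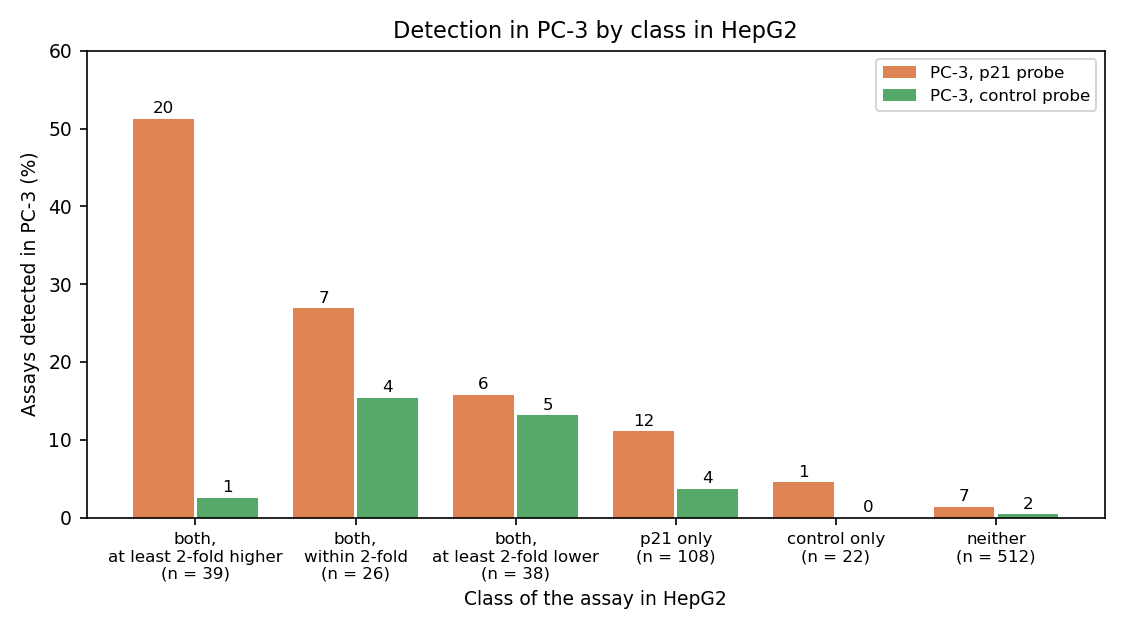
Share (%) of the assays of each HepG2 class that were detected in PC-3 with the p21 probe (orange) and the control probe (green), with the number of assays above each bar and the class size under it. The class at least 2-fold higher in HepG2 has 20 of 39 assays with the p21 probe and 1 with the control probe, and the lower class 6 and 5 of 38.

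Lists of miRNAs that mark tissues, chosen with earlier results of these data known, were checked for the whole class pattern. Of 6 liver-enriched miRNAs (miR-122, miR-148a, miR-192, miR-194, miR-215 and miR-885-5p) 0 were detected with either probe. Of 9 neural miRNAs 5 were detected with both probes, all at least 2-fold lower with p21 (median -3.22), 3 with the control probe only and 0 with the p21 probe only. Of 7 blood-cell miRNAs 3 were detected with both, all lower (median -1.96), and 1 was control-only. Of 6 muscle miRNAs on the panels 2 were lower and 1 was control-only. Of 5 stromal or endothelial miRNAs on the panels 3 were lower and miR-199a-5p was higher. Of all assays 2.95% were control-only, and of those on panel 1 5.6%. Over all assays detected with both probes 36.9% were lower, and on UniSp3 several of these miRNAs turned positive, such as miR-124 (2.09), miR-223 (1.03) and miR-133b (0.47). Most of these miRNAs are scarce in liver tumour cells by repute, and their source in the control purification was not tested. Of the reported p21 regulators outside the miR-17 family, 4 of 10 on the panels were detected, against 31.3% of all assays: miR-423-3p (1.39) and miR-132 (-0.17) with both probes, and miR-345 and miR-654-3p with the p21 probe only.

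The STAT3 purification of HepG2, which shares the control purification, gave intermediate uncentred Cq values for some of the miRNAs above. For others its Cq lay outside the range of the control and p21 wells, and neither kind was counted. miR-92a stood at 26.79 with the STAT3 probe, miR-296-5p at 32.93 and let-7c at 34.01, each later than with the p21 probe. miR-125b stood at 27.48 with the STAT3 probe, earlier than the 29.83 of the other purifications, and miR-23a at 27.32, slightly before its p21 value of 27.62. miR-143 stood at 39.09, later than with the control probe (32.43) and the p21 probe (33.89).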

How the data were processed

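The deposited table gives Cq values, a score in PCR cycles that the authors did not normalise, with 1 well per assay. Per the labels, miRNAs were measured by SYBR Green RT-PCR on Exiqon panels; the instrument and threshold were not given in the sources used here. Samples were grouped by their titles. The members and lists were chosen with earlier results of these data known. A Cq of at most 35 counted as detected. For assays detected with both probes, the Cq with the control probe minus that with the p21 probe was centred on its median per panel, and a step of 1 log2 unit (2-fold) made an assay higher or lower. For one-sided assays the undetected side was set at Cq 35 to give a bound. The fold change table of the authors was not used here. Assay names were matched to RefSeq mature names of GRCh38.p14 with a hand-written table of old names and arms (636 of 745 matched to a sequence, 671 to a gene). Genes within 10 kb on 1 strand formed a cluster, and bases 2 to 8 the seed. miRNAs were named by rule: ranks 11 to 25 and the 6th to 15th lowest among shared assays, ranks 6 to 20 of p21-only assays, all control-only assays, and detected members of clusters and families with at least 3 detected assays. Others were named after their values were seen. The calculation was tested on simulated data. Python 3.11.15, pandas 2.3.3, numpy 2.4.6, scipy 1.17.1 and matplotlib 3.10.9 were used. Precision rests on repeated wells and leaves out the error of transfection and purification. Alternatives were the Cq limit, the centre, the size of change, undetected assays at the limit, panel 1 alone, the cluster distance and the seed length.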

Additional observations from a re-analysis of the deposited data

Results flagged for a closer look

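miR-1979 differed in direction between the cell lines after centring on the panel median. It was -1.84 in HepG2 (Cq 27.94 for control and 28.48 for p21) and 4.11 in PC-3 (33.97 and 27.97). The HepG2 wells were less than 1 cycle apart, and UniSp3 on panel 1 was 2.28 cycles later with the p21 probe. With UniSp3 as the centre the HepG2 value would therefore be positive. The PC-3 centre rests on few assays, since the PC-3 control probe gave 8 assays on panel 1. Each value rests on 1 purification per probe, and the difference between the lines was not tested. The name has since been withdrawn from miRBase.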

How the results depend on the processing

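No paired analysis was possible because each condition was purified 1 time and the panels carry different assays. Counts of assays detected with both probes, with p21 only and with control only (103, 108 and 22) stayed within 1.5 times at a limit of 34 and became 41, 65 and 13 at a limit of 33; at 37 the first and last became 164 and 45, and with any recorded Cq they were 246, 170 and 47. Panel 1 alone held 41 p21-only assays. The split of 39 higher and 38 lower became 10 and 16 at a limit of 33, 64 higher at 37, and 92 and 85 with any Cq. It was 21 and 12 at 4-fold, and 69 and 64 with undetected assays at the limit. Without centring it was 56 and 11, on UniSp6 51 and 12, on U6, SNORD38B and SNORD49A 18 and 54, on the reference assays 9 and 70, and on UniSp3 88 and 1. Another centre adds 1 constant per panel, so the order within a panel stays.

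Other centres were computed for 76 assays detected with both probes, and the lists below cover only these. The bounds of one-sided assays were not computed with other centres. miR-423-3p, miR-720 and miR-1979 were not among them. miR-423-3p would be negative on the reference assays too, since its uncentred difference of 2.70 lay under that centre of 3.72 cycles. Of the values past 2-fold, these turned negative on the reference assays: miR-106a (-0.0656), miR-196b (-0.18), miR-484 (-0.26), miR-15b (-0.37), let-7g (-0.41), miR-210 (-0.44), miR-199a-5p (-0.52), miR-24 (-0.53), miR-15a (-0.58), miR-20a (-0.78), miR-221 (-0.997), miR-93 (-1.13), miR-19b (-1.27), miR-107 (-1.27) and miR-27a (-1.36, and -0.0747 on the 3 small RNAs). So did the medians of the miR-17 family (-0.95), the miR-17 to miR-92a cluster (-1.03), the X-linked cluster of miR-106a (-0.67) and the miR-23a cluster (-0.53). Of values past 2-fold, without centring let-7i (0.27), miR-133a (0.13), miR-145 (0.10), miR-212 (0.29) and miR-29c with the miR-29 family's median (0.0038) turned positive, as did let-7i (0.0329) and miR-212 (0.0567) on UniSp6. On UniSp3 the values past 2-fold that turned positive were miR-128 (0.36), miR-133b (0.47), miR-143 (0.82), miR-18b (0.90), miR-223 (1.03), miR-126 (1.08), miR-136 (1.16), miR-26a (1.23), miR-219-5p (1.46), miR-150 (1.63), miR-424 (1.64), miR-451 (1.67), miR-126* (1.67), let-7d* (1.75), miR-26b (1.95), miR-124 (2.09), miR-31* (2.12), miR-29b (2.17), miR-134 (2.26), miR-125b (2.28), miR-29c and the miR-29 family (2.28), miR-145 (2.38), miR-133a (2.41), let-7i (2.55) and miR-212 (2.57). Of 16 named values within 2-fold, 10 turned sign on the reference assays and 10 on the 3 small RNAs, and 6 each on UniSp3, on UniSp6 and without centring. The medians of the miR-15 family (-1.92) and of the miR-23b cluster (-2.11), within 2-fold before, turned negative on the reference assays. Both medians also turned negative on the 3 small RNAs (-0.63 and -0.82). Without miR-103, an alternative chosen after seeing the data, the SD of a difference was 0.20 in place of 0.68 cycles. Clusters of up to 50 kb and seeds of bases 2 to 7 turned no median. Precision near Cq 35, where the class of an assay is decided, rests on few repeated wells.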
